A study of Mus musculus with 4 samples.

Results

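The 10 genes described here are the immediate early transcription factor genes Fos, Fosb, Fosl1, Fosl2, Jun, Junb, Jund and Egr1, the immediate early gene Ier2, and the growth regulator gene Myc. They were found by gene name in a table of ribosome footprints on 55573 mouse genes, and each name had 1 row. All 10 passed a filter of a mean level of at least 1 RPKM (read density for each kilobase of a gene, after the authors’ scaling between libraries), which left 11363 genes for testing, 9877 of them protein-coding.

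Ribo-seq, which sequences the stretches of mRNA that ribosomes shield from a nuclease, had been carried out on primary mouse myoblasts, the dividing progeny of muscle stem cells (satellite cells, SCs), to ask which mRNAs depend on the translation factor eIF5A. There were 2 libraries labelled WT and 2 labelled eIF5A knockout (KO), named here WT 1, WT 2, KO 1 and KO 2. By the study's methods the KO mice carried floxed eIF5A alleles and a Pax7-driven, tamoxifen-inducible Cre recombinase, so deletion was limited to cells that had expressed Pax7. The controls were described in several ways, as littermates, as mice with the Cre allele alone and, for other experiments, as floxed mice without Cre. The labels say only WT. Cells came from the hind limbs of 3-week-old mice and were proliferating on day 2 of culture. All 4 libraries shared a medium with fetal bovine serum and FGF, and all were treated with cycloheximide at 100 µg/ml, for 10 minutes by the labels and 1 minute by the series text. The study calls the Ribo-seq duplicate experiments, but whether the 2 libraries of a group came from separate animals or cultures was not stated. P-values therefore measure only the spread between these libraries, which may be technical.

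Immediate early genes are transcribed within minutes of a mitogen, serum or stress signal, through kinase cascades that act on transcription factors already present in the cell. Fos and Jun proteins pair through leucine zippers to form AP-1, a dimer that binds DNA, while Egr1 is a zinc finger factor and Myc pairs with Max to drive genes of growth and ribosome production. They are known to be switched on early when SCs leave quiescence, and their short-lived mRNAs are known to build up in serum-fed cells and under translation inhibitors.

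The libraries held 642429 to 704006 gene-assigned reads each, of which 41.5% and 33.9% lay on protein-coding genes in WT 1 and WT 2 and 65.4% and 59.2% in KO 1 and KO 2. Footprints on Eif5a, the targeted gene, numbered 50 and 73 reads in WT and 130 and 114 in KO, at 34.9, 65.2, 60.3 and 59.4 RPKM in the order WT 1, WT 2, KO 1 and KO 2. The targeted gene was thus not lower in the libraries labelled KO, and each direction below is between libraries so labelled. Markers of myoblasts were present, with reads on 10 of 10 genes, at a summed 350 and 214 RPKM in WT and 121 and 136 in KO. The 8 fibroblast markers summed to 461 and 270 RPKM in WT and 775 and 346 in KO, the 5 endothelial markers to 106 and 99.8 RPKM in WT and 139 and 112 in KO, and the 6 immune markers to between 17.1 and 25.6 RPKM with Cd3e and Itgam at 0 throughout. The part of these marker shifts in the values below was not tested, and in bulk libraries fewer cells of a type and less RNA per cell cannot be told apart.

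eIF5A is best known for relieving ribosomes that stall at consecutive proline codons, so the proline runs of the 10 proteins were read from their longest coding sequences (GENCODE models, vM21, build GRCm38). A run of 3 or more prolines was found in 6 of the 10 proteins, beside 25.8% of 9869 tested protein-coding genes, and proline made up a median of 10.9% of their residues beside 5.52%. The longest were the 7 prolines of Fosb, a length reached by 1.52% of genes, and the 5 prolines of Jund, a length reached by 4.07%. Fosl1, Junb, Egr1 and Ier2 had runs of 3. Fos, Fosl2, Jun and Myc had none of that length. The coding windows below show each run in Fosb, Jund, Junb, Fosl1 and Ier2, with 5 codons on either side, on the coding strand, 5′ to 3′, with the codons of the run named on each line in capitals and all other codons, other prolines included, in lower case.
Fosb, codons 257 to 263, chr7:19305054-19305104, minus strand: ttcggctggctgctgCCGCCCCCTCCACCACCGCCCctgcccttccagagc
Jund, codons 213 to 216, chr8:70699679-70699720, plus strand: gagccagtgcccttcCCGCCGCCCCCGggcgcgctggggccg
Jund, codons 221 to 225, chr8:70699703-70699747, plus strand: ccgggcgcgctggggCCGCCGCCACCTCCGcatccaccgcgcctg
Junb, codons 175 to 177, chr8:84977884-84977922, minus strand: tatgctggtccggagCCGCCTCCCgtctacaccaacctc
Fosl1, codons 88 to 90, chr19:5450301-5450339, plus strand: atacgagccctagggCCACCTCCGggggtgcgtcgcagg
Ier2, codons 112 to 114, chr8:84662395-84662433, minus strand: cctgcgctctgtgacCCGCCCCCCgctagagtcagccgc
Ier2, codons 191 to 193, chr8:84662158-84662196, minus strand: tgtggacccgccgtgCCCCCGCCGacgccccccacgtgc
The Jund runs follow each other closely. The deposited values are totals over whole genes, so whether footprints gathered at any of these windows could not be read from them.

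All 10 genes carried footprints in every library, and on the deposited gene length 5 of them were among the genes with the highest footprint levels. Fos, Junb, Jun, Egr1 and Ier2 ranged from 135 to 308 RPKM over the 4 libraries, above 98.8% to 99.8% of the tested protein-coding genes in each. Myc stood above 97% to 98.0% of them, Fosb above 92.8% to 96.0% and Fosl2 above 86.8% to 95.6%. Jund and Fosl1 had the widest ranges, from 73.6% to 98.5% and from 66.7% to 91.4%, with the lowest place of each in KO 1. The plot of levels by library shows the 5 high genes as a tight band and the other 5 below it.

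**Figure D1:**
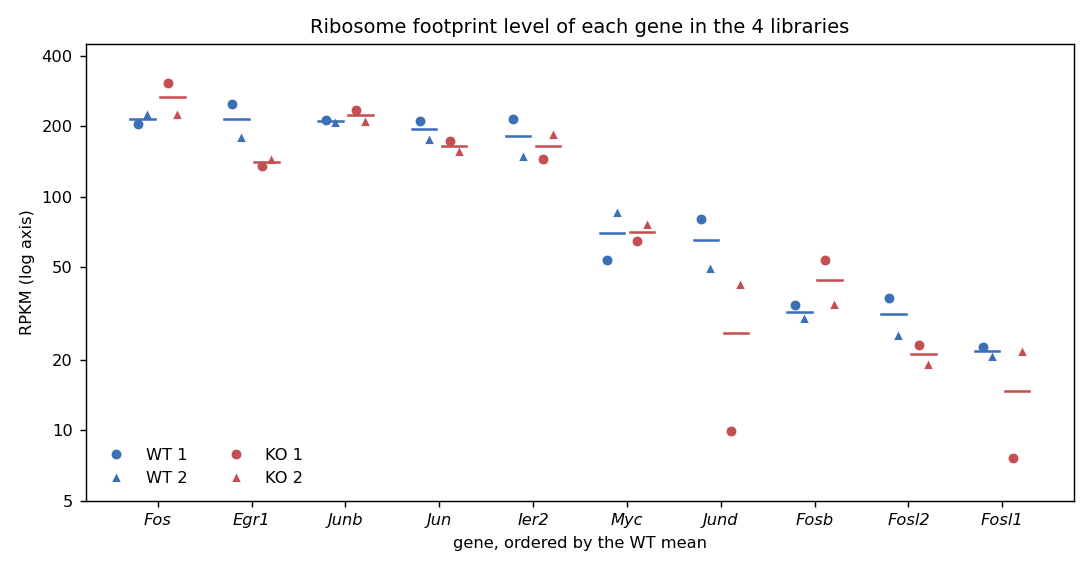
RPKM on a log axis of the 10 genes in each library, ordered by the WT mean, with circles for replicate 1, triangles for replicate 2, WT in blue, KO in red and a line at each group mean. Fos, Egr1, Junb, Jun and Ier2 sit between 135 and 308 RPKM, and Jund in KO 1 (9.91 RPKM) and Fosl1 in KO 1 (7.59 RPKM) lie far under their other 3 libraries.

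The order of the WT means on the deposited gene length was Fos (215 RPKM), Egr1 (215 RPKM), Junb (211 RPKM), Jun (194 RPKM), Ier2 (182 RPKM), Myc (69.8 RPKM), Jund (65.1 RPKM), Fosb (32.3 RPKM), Fosl2 (31.3 RPKM) and Fosl1 (21.9 RPKM). Only at the step from Ier2 to Myc did the 4 values of a gene lie clear of the 4 values of the next, and the other 8 neighbouring pairs overlapped when values were pooled over libraries. Footprints fall on coding sequence, which is 10.1% of the deposited length of Fosl2, 16.2% of that of Fosb and 61.3% of that of Jund. With the same reads set over coding length, the WT order became Jun (617 RPKM), Egr1 (602 RPKM), Junb (470 RPKM), Fos (444 RPKM), Ier2 (418 RPKM), Fosl2 (310 RPKM), Fosb (199 RPKM), Myc (139 RPKM), Jund (106 RPKM) and Fosl1 (54.3 RPKM), and only the pooled values of Fosb and Myc were then clear of each other. The places of Fosl2 and Fosb relative to Myc and Jund therefore depended on the length used.

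Between groups, none of the 10 genes passed the test (limma on log2(RPKM + 1), adjusted p from 0.68 to 0.98), beside 0.106% of all genes tested, and none had an unadjusted p under 0.05, beside 4.46% of all genes for lower in KO and 2.86% for higher. With protein-coding genes alone in the fit, Jund had an unadjusted p of 0.036 and did not pass the adjusted test. A fit to the recovered reads (voom) also called 0 of the 10, beside 0.678% of all genes, and gave 1 of them, Jund, an unadjusted p under 0.05, beside 10.9% of all genes. The KO and WT values did not overlap in 5 of the 10 genes, beside 40.4% of all genes tested. Of these, Fosl2, Jun, Jund and Egr1 were lower in both KO libraries, 4 of 10 beside 20.3% of all genes, and Fosb was higher, 1 of 10 beside 20.1%. These directions are on the deposited scaling: set over all gene-assigned reads, which shifts the median of all genes tested by 0.47, the differences of Fosl2, Jun, Egr1 and Ier2 came to 0.062, 0.39, 0.020 and 0.49, while Jund stayed negative at -0.97. The median log2 difference over the 10 genes was -0.18, and over all genes tested it was 0.00026. With 2 libraries against 2, an exact permutation test of a single gene cannot give a p-value under 0.33.

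The Fos family supplies the AP-1 subunits that cannot pair among themselves and need a Jun partner. Fos (chr12:85473890-85477273), the founding member and the classic serum-response gene, had 205 and 226 RPKM in WT and 308 and 225 in KO, from 250 to 656 reads. KO 1 stood above the other 3 libraries, which lay close together, and the groups overlapped. The difference (KO minus WT, here and throughout on the log2(RPKM + 1) scale) was 0.29 (SE 0.50, 95% interval -0.93 to 1.52, adjusted p = 0.86), smaller than the gap of 0.45 on the log2 RPKM scale between the 2 KO libraries.

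Fosb (chr7:19302696-19310051), a Fos relative that also gives rise to the shorter ΔFosB form, had 34.3 and 30.3 RPKM in WT and 53.7 and 34.7 in KO. Both KO libraries were above both WT libraries, although KO 2 exceeded WT 1 by little. The difference was 0.41 (SE 0.44, 95% interval -0.67 to 1.49, adjusted p = 0.76) and came to 0.10 without KO 1 and 0.72 without KO 2. Fos also had a positive difference in each of the 4 fits that left out 1 library (0.068 to 0.52), with groups that overlapped.

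Fosl1 (chr19:5447547-5455946), which encodes Fra-1, a later and longer-lived Fos family protein that is itself an AP-1 target, was the least covered of the 10. It had 22.8 and 20.9 RPKM in WT and 7.59 and 21.9 in KO, from 28, 20, 14 and 36 reads. KO 1 was alone below, and KO 2 lay between the WT values. The counting interval (95%, exact Poisson, covering counting error only) was 4.15 to 12.7 RPKM in KO 1 and began at 12.8 RPKM or higher in the other 3. The difference was -0.70 (SE 0.56, 95% interval -2.07 to 0.67, adjusted p = 0.72) and 0.0051 without KO 1. Ccdc85b, a gene on the opposite strand with 127 reads in all, overlaps Fosl1, and whether the counting used strand was not given in the sources used here.

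Fosl2 (chr5:32135801-32157842), which encodes the related Fra-2, had 37.0 and 25.7 RPKM in WT and 23.1 and 19.2 in KO, from 117 to 216 reads. Both KO values were below both WT values. The difference of -0.53 (SE 0.42, 95% interval -1.56 to 0.50, adjusted p = 0.72) was the size of the gap between the WT libraries, 0.53 on the log2 RPKM scale. Within each library, the reads of Fosb per read of Fosl2, which no scaling between libraries can change, were 0.597 and 0.761 in WT and 1.5 and 1.17 in KO. These groups did not overlap (exact permutation p = 0.33, the smallest that 2 against 2 allows).

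The Jun family supplies the partner subunits of AP-1, and its proteins can also pair with each other. Jun (chr4:95049034-95052222), the archetype and a direct target of JNK kinases, had 211 and 177 RPKM in WT and 173 and 157 in KO, from 266 to 501 reads. The KO values were both lower, by a margin of 177 against 173 RPKM between the nearest libraries. The difference was -0.23 (SE 0.47, 95% interval -1.38 to 0.93, adjusted p = 0.89). Junos, an antisense RNA gene, overlaps Jun and had 12 reads in all.

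Junb (chr8:84974484-84978718), known as a weaker activator that can restrain Jun, varied least of the 10 across the 4 libraries. It had 213 and 208 RPKM in WT and 235 and 211 in KO, from 226 to 490 reads, and the groups overlapped. The difference was 0.077 (SE 0.48, 95% interval -1.09 to 1.25, adjusted p = 0.97), and the WT libraries were 0.034 apart on the log2 RPKM scale, within a counting error of 0.13. Prdx2, on the other strand, overlaps Junb and had 161 reads in all beside 1404 for Junb.

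Jund (chr8:70698949-70700616), the Jun family member usually expressed without a stimulus and tied to restraint of growth, showed the widest spread and the only difference between group means over 2-fold. It had 80.6 and 49.6 RPKM in WT and 9.91 and 42.3 in KO, from 81, 39, 15 and 57 reads. KO 1 was far below the others, while KO 2 was just below WT 2. By counting error alone, the 95% intervals were 64.0 to 100.1 and 35.3 to 67.8 RPKM in WT and 5.55 to 16.4 and 32.0 to 54.8 RPKM in KO, so KO 1 met none of the other 3 and KO 2 met WT 2. The WT mean was 2.49 times the KO mean, and the difference was -1.56 (SE 0.73, 95% interval -3.36 to 0.24, adjusted p = 0.68). The 2 KO libraries were themselves 2.09 apart on the log2 RPKM scale (counting SE 0.42), more than the groups were. The value came to -0.57 without KO 1 and -2.56 without KO 2, so 1 library decided its size but not its sign. Gm11175, the antisense gene there, had 0 reads.

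**Figure D2:**
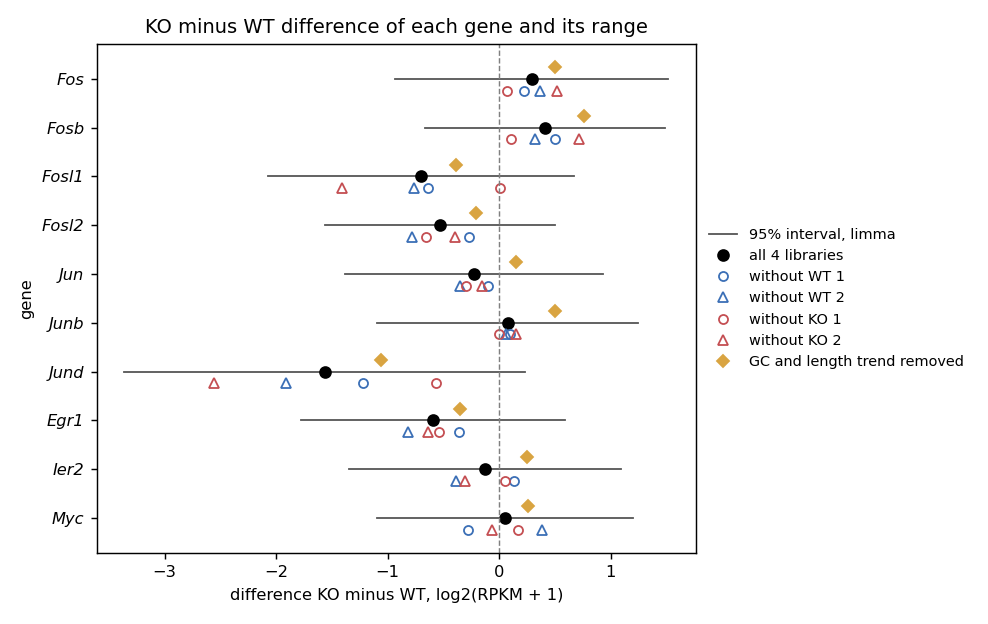
Difference KO minus WT on the log2(RPKM + 1) scale for each gene, with black points and 95% limma intervals for all 4 libraries, open symbols for fits that leave out 1 library, and diamonds for values after the trend on coding GC content and length is removed. Every interval includes 0, and the open symbols of Jund run from -2.56 to -0.57 and those of Fosl1 from -1.41 to 0.0051.

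Because the 2 families work as dimers, their make-up was also compared within each library, as the share of each member in the summed footprints per kilobase of coding sequence of the 7 genes. Jun was the largest share in WT, at 28.7% and 27.3%, and Fos in KO 1, at 27.5%, whereas KO 2 had 25.5% Jun and 23.7% Fos. The Jun family together took 54.7% and 53.7% in WT and 47.4% and 53.0% in KO. Jund took 5.63% and 3.92% in WT and 0.702% and 3.52% in KO, and Fosl2 took 15.7% and 12.3% in WT and 9.93% and 9.68% in KO. The KO shares lay below the WT shares for Jun, Jund and Fosl2, above them for Fos, Fosb and Junb, and across them for Fosl1. On RPKM itself the groups of Fos and Junb overlapped, and the groups of 40.4% of all genes tested did not. These shares were added after the values were seen, and no share over all genes was computed for them. Shares of 1 total are not independent of each other, and an exact permutation test of 2 shares against 2 cannot give a p-value under 0.33.

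**Figure D3:**
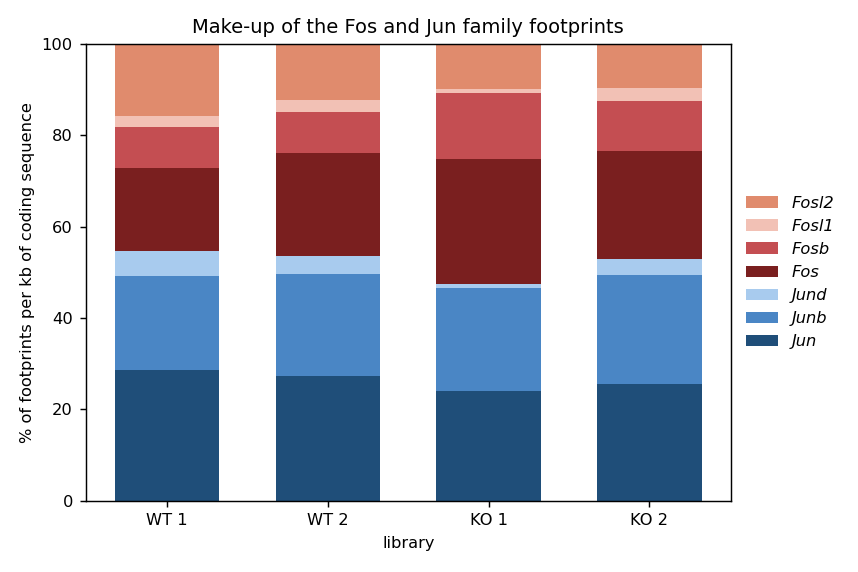
Share (%) of each Fos and Jun family gene in the footprints per kilobase of coding sequence of the 7 genes, as 1 stacked bar per library, with the Jun family in blues at the bottom and the Fos family in reds above. The blue part ends between 47.4% and 54.7%, and Jund is a thin band in KO 1 (0.702%).

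The within-library ratio of the Jun relatives showed the same 1 library. Junb had 3.65 and 5.79 reads per read of Jund in WT and 32.7 and 6.88 in KO. KO 2 was near WT 2 and KO 1 was well above all. Reads of Fos per read of Jun were 0.716 and 0.940 in WT and 1.31 and 1.06 in KO, and reads of Fos per read of Egr1 were 0.432 and 0.654 in WT and 1.19 and 0.814 in KO. Reads of Fos per read of Jund were 3.58 and 6.41 in WT and 43.7 and 7.51 in KO. In each of these ratios the groups did not overlap (exact permutation p = 0.33 for each). Reads of Fos per read of Fosl1 were 10.4 and 12.5 in WT and 46.9 and 11.9 in KO, with groups that overlapped (exact permutation p = 0.67). These 5 and the ratio of Fosb to Fosl2 were picked after the values were seen.

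Egr1 (chr18:34859823-34864984), the zinc finger factor induced through serum response factor, had the most reads of the 10, from 382 to 671 in a library. It had 248 and 181 RPKM in WT and 135 and 145 in KO. The KO libraries agreed within 0.10 on the log2 RPKM scale and were both below the WT libraries, which were 0.46 apart with a counting error of 0.092. The difference was -0.59 (SE 0.48, 95% interval -1.78 to 0.59, adjusted p = 0.72), the WT mean being 1.53 times the KO mean. It ran from -0.82 to -0.36 when 1 library was left out.

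Ier2 (chr8:84661331-84662854), a small nuclear protein gene with 2 proline runs and an intronless coding sequence, had 214 and 149 RPKM in WT and 145 and 185 in KO, from 107 to 228 reads. The groups overlapped, and in each group the libraries differed by 0.36 or more on the log2 RPKM scale. The difference was -0.13 (SE 0.50, 95% interval -1.35 to 1.10, adjusted p = 0.94), and its sign turned without WT 1 (0.13) or without KO 1 (0.051).

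Myc (chr15:61985391-61990374) had 53.7 and 85.9 RPKM in WT and 64.9 and 76.6 in KO, from 88, 110, 160 and 168 reads. Both KO values lay inside the WT range, and the group means were 69.8 ± 22.8 and 70.7 ± 8.22 RPKM (SD, n = 2). The difference was 0.052 (SE 0.47, 95% interval -1.10 to 1.20, adjusted p = 0.98), so an increase or a decrease of up to about that interval could not be told from none. Its sign turned without WT 1 (-0.28) or without KO 2 (-0.065).

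By the distance between centred log2(RPKM + 1) profiles over the 4 libraries, the nearest of 3354 other protein-coding genes with at least 100 reads to Myc were Slc39a6, a zinc transporter (distance 0.045), Clstn1 (0.084) and Dynlrb1, a dynein light chain (0.090). The nearest to Egr1 were Zfp592 (0.055), Plekhg1 (0.076) and Cyth3 (0.097). Slc39a6 had 11.8 and 19.8 RPKM in WT and 14.6 and 17.9 in KO. With 4 points a profile, close matches among this many genes are a description only.

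Read as 1 group, the 10 genes took 0.892% (95% Wilson interval 0.857% to 0.928%) and 0.738% (0.703% to 0.775%) of the protein-coding reads in WT and 0.672% (0.649% to 0.696%) and 0.666% (0.641% to 0.692%) in KO. The group means were 0.815% ± 0.109 and 0.669% ± 0.00452 (SD, n = 2). Both KO shares were lower than both WT shares (exact permutation p = 0.33 is the smallest possible). Of all gene-assigned reads, noncoding RNA included, the same genes took 0.370% and 0.25% in WT and 0.439% and 0.394% in KO, the opposite direction. Their summed level in the deposited scaling was 1320 and 1153 RPKM in WT and 1155 and 1119 in KO.

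Coding GC content, which the choice of genes did not use, set the 10 apart from most genes. It ran from 58.2% for Myc to 70.7% for Jund, with a median of 62.1% beside 53.2% over the 9869 tested protein-coding genes, and only 0.456% of those genes had a GC content above that of Jund. Over all these genes the difference KO minus WT moved with GC (Spearman rho of -0.36 across genes, which are not independent and share the 4 libraries). The median difference was 0.37 in the tenth of genes with the lowest GC and -0.48 in the tenth with the highest. After a trend on coding GC content and length was removed from each library, the median of the 10 genes turned from -0.18 to 0.20. Jund came to -1.06, Egr1 to -0.35, Fosl1 to -0.38 and Fosl2 to -0.21, Fosb came to 0.76, Fos to 0.50, Junb to 0.50 and Myc to 0.26, while Jun (0.15) and Ier2 (0.25) changed sign. None passed the test on that scale either (adjusted p from 0.71 to 0.94).

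**Figure D4:**
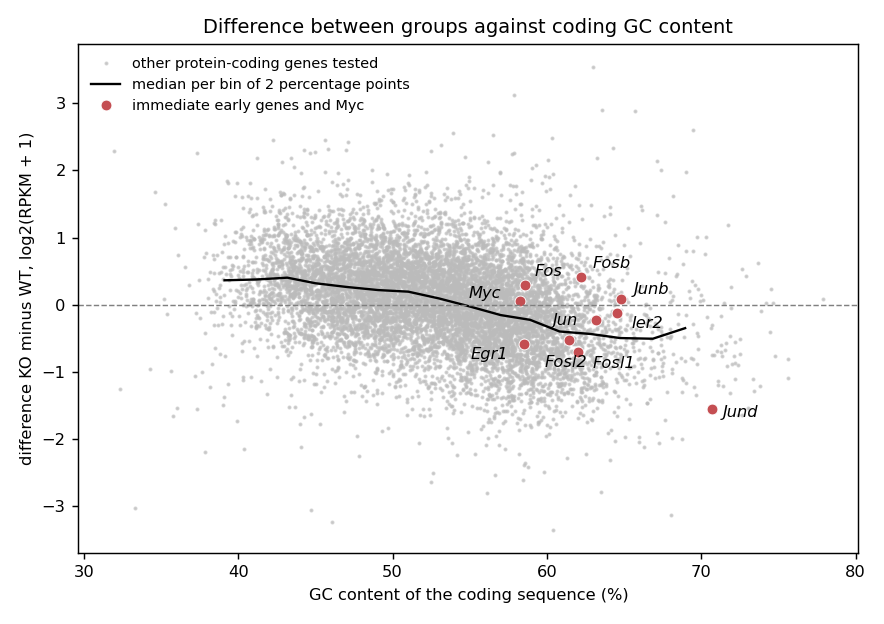
Difference KO minus WT on the log2(RPKM + 1) scale against the GC content (%) of the coding sequence, with 1 grey point per tested protein-coding gene, a black line for the median per bin of 2 percentage points and the 10 genes in red. All 10 red points lie at a GC content of 58.2% or more, where the black line is below 0 as far as it was drawn, and Jund is at 70.7% and -1.56.

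Of 44 other immediate early genes, 43 carried reads and were tested, and Egr4 was at 0. None passed the adjusted test, and none had an unadjusted p under 0.05 in limma, beside 4.46% of all genes for lower in KO and 2.86% for higher. The median difference was 0.081, with 23 positive and 20 negative. The 3 with most reads were Ptgs2, Ccn1 and Plk2. Ptgs2, the inducible prostaglandin synthase, had 73.9 and 121 RPKM in WT and 281 and 120 in KO, with KO 1 alone high as for Fos. Ccn1, a secreted matrix protein, had 261 and 362 RPKM in WT and 399 and 310 in KO, and Plk2, a kinase of the cell cycle, had 141 and 137 RPKM in WT and 155 and 162 in KO. Voom gave 2 of the 43 an unadjusted p under 0.05, beside 10.9% of all genes, and called 0.

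The kinases and factors that switch immediate early genes on summed to between 232 and 308 RPKM over 32 genes in a library. Of the 32, 30 were tested and 0 passed, with a median difference of -0.19, and voom called 0 with 2 at an unadjusted p under 0.05, beside 10.9% of all genes. limma gave 1 of the 30 an unadjusted p under 0.05 for lower in KO, beside 4.46% of all genes, and 1 for higher, beside 2.86%. Hras, a small GTPase upstream of MAP kinase cascades, had 5.78 and 10.8 RPKM in WT and 3.54 and 1.66 in KO (difference -1.36, unadjusted p = 0.030, adjusted p = 0.67), from 49 reads in all. Mapk11, a p38 kinase, had 1.15 and 0.735 RPKM in WT and 3.06 and 6.43 in KO (difference 1.51, unadjusted p = 0.024, adjusted p = 0.66), from 26 reads. Map2k1, the MEK1 gene, and Crebbp, a coactivator, were among those with most reads. Map2k1 ranged from 21.5 to 38.0 RPKM, with groups that overlapped, and Crebbp had 14.3 and 6.90 RPKM in WT and 6.68 and 4.02 in KO.

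Other bZIP factors that can pair with Fos or Jun proteins, or that belong to related families, gave 14 tested genes of 18, with 0 called, none at an unadjusted p under 0.05 in limma, beside 4.46% of all genes for lower and 2.86% for higher, and 2 in voom, beside 10.9%, which called 0. Their median difference was -0.25. Nfe2l2, the factor of the oxidative stress response, had 24.0 and 28.5 RPKM in WT and 62.2 and 45.0 in KO (difference 0.99, adjusted p = 0.67). Cebpb had 344 and 140 RPKM in WT and 47.6 and 165 in KO, with KO 1 the lowest as for Jund. Atf4, the effector of the integrated stress response, had 80.9 and 82.8 RPKM in WT and 94.9 and 103 in KO.

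Partners, antagonists and cofactors of Myc gave 18 tested genes of 21, with a median difference of -0.021 and 0 called by either fit, while Mxd3 and Mycn were at 0. Zbtb17, which encodes Miz-1 and brings Myc to the genes it represses, had 6.42 and 8.21 RPKM in WT and 1.71 and 3.19 in KO (difference -1.30, unadjusted p = 0.020, adjusted p = 0.66), from 46 reads. It was the only gene of the list with an unadjusted p under 0.05 in limma, beside 4.46% of all genes for lower in KO, and voom also gave 1, beside 10.9%. The 3 with most reads were Trrap, Mga and Ruvbl2, with differences of -0.064, 0.54 and 0.43 and groups that overlapped.

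Targets of Myc in ribosome production and metabolism were mostly of positive difference, although none passed the test, and how they differed from Myc itself (0.052) was not tested. All 33 listed genes were tested, 31 had a positive difference and the median was 0.69, 0.55 after the trend on GC and length was taken out, 0.62 when scaled to protein-coding reads and 1.24 when scaled to all gene-assigned reads, where the median of all genes tested was 0.47. In 19 of the 33 both KO values were above both WT values, beside 20.1% of all genes, and in 0 they were below. Their summed level was 459 and 817 RPKM in WT and 1011 and 953 in KO, so WT 1 was the lowest library. limma called 0 with 4 at an unadjusted p under 0.05, all higher in KO, beside 2.86% of all genes, and voom called 0 with 10, beside 10.9%. Dkc1, a nucleolar pseudouridine synthase, had 1.21 and 3.09 RPKM in WT and 7.22 and 10.5 in KO (difference 1.70, adjusted p = 0.63). Shmt2, a mitochondrial enzyme of the one-carbon pathway, had 9.60 and 11.6 RPKM in WT and 36.9 and 21.1 in KO (difference 1.32, adjusted p = 0.66).

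Eif4e, the cap-binding factor, had 4.69 and 8.13 RPKM in WT and 16.0 and 15.9 in KO (difference 1.23, adjusted p = 0.66), and Nop2, an rRNA methyltransferase, had 12.6 and 19.1 RPKM in WT and 28.6 and 40.2 in KO (difference 1.08, adjusted p = 0.67). The targets with most reads differed in the same direction by less. Ncl, the gene of nucleolin, had 19.2 and 29.8 RPKM in WT and 47.0 and 40.8 in KO, Ldha, lactate dehydrogenase, had 58.6 and 101 RPKM in WT and 133 and 123 in KO, and Mybbp1a had 25.2 and 32.6 RPKM in WT and 38.8 and 39.9 in KO.

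**Figure D5:**
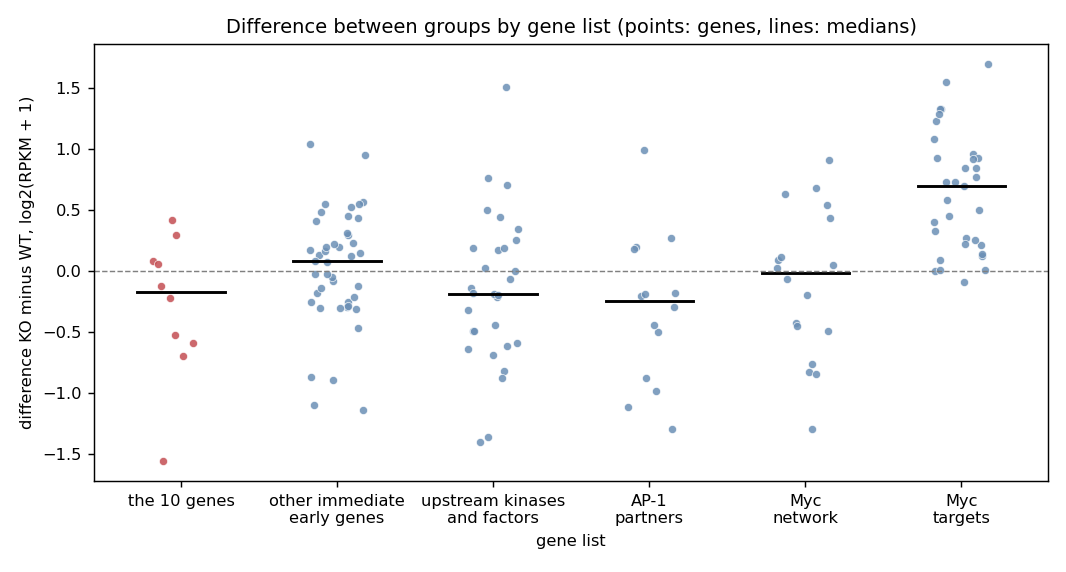
Difference KO minus WT on the log2(RPKM + 1) scale of each tested gene, by list, with 1 point per gene and a line at each list's median. The medians are -0.18 for the 10 genes, 0.081, -0.19, -0.25 and -0.021 for the next 4 lists and 0.69 for the Myc targets, where 31 of 33 points lie above 0.

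Of the marker lists, 5 of the 10 myoblast markers (Myf5, Pax7, Des, Chrna1 and Myog) were lower in KO at an unadjusted p under 0.05 beside 4.46% of all genes, and 0 passed the adjusted test in limma, while voom called 1, beside 0.678% of all genes, and gave 7 an unadjusted p under 0.05, beside 10.9%. Of the 10, 9 had a negative difference, and in 7 both KO values were below both WT values, beside 20.3% of all genes. Chrna1, an acetylcholine receptor subunit, had 17.4 and 16.0 RPKM in WT and 2.26 and 4.52 in KO, and Myod1 had 140 and 117 RPKM in WT and 48.6 and 79.8 in KO. Myog, a gene of differentiating myocytes, had 91.0 RPKM in WT 1 and 4.26 in WT 2, so the WT libraries differed in this lineage gene by more than any of the 10 genes did. Not all markers of the lineage went that way: Vcam1, an adhesion receptor, had 5.42 and 11.7 RPKM in WT and 20 and 13.0 in KO (difference 0.92, adjusted p = 0.69), and Itga7, a laminin receptor subunit, had 22.8 and 12.1 RPKM in WT and 29.7 and 8.87 in KO, with groups that overlapped. All 5 endothelial markers had a positive difference, and in 4 both KO values were above both WT values, beside 20.1% of all genes. The 8 fibroblast markers had 6 positive and 2 negative differences, the latter Col3a1 (-0.27) and Thy1 (-0.36). Those with most reads were Dcn, with 240 and 126 RPKM in WT and 460 and 171 in KO, Pdgfra, with 43.4 and 31.6 RPKM in WT and 88.2 and 43.6 in KO, and Col1a2, with 39.1 and 28.7 RPKM in WT and 56.3 and 34.6 in KO. KO 1 was the highest library for each of these 3. Among fibroblast markers Postn was higher in KO at an unadjusted p of 0.017, among endothelial markers Kdr at 0.038 and among immune markers Adgre1 at 0.039, with adjusted p of 0.65 or more for each. Cd68, the other immune marker tested, had 15.8 and 23.6 RPKM in WT and 14.9 and 14.8 in KO (difference -0.36, adjusted p = 0.78). The Jund and Fosl1 values of KO 1 stood beside the highest fibroblast marker sum of the 4 libraries (775 RPKM), and the part of that in them was not tested.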

How the data were processed

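Per the labels and the study's methods, the authors used RNase I on lysates, purified ribosomes by column and fragments by gel, removed rRNA and tRNA reads, aligned the rest with TopHat2 to mm10 and counted them per gene with HTSeq. How reads with several matches were counted was not given in the sources used here. The deposited values were RPKM, scaled by the authors to a median-of-ratios size factor, so these values cannot show a shift common to most genes. Multiplying by gene length gave whole reads (within 0.01) for 100% of values. A floor of 3 reads equals 2.98, 3.82, 1.98 and 2.23 RPKM for Jund in WT 1, WT 2, KO 1 and KO 2. Without molecular identifiers, the intervals and this floor reflect counting error alone.

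The main test was limma 3.58.1 in R 4.3.3 (lmFit, eBayes with a trend) on log2(RPKM + 1), which understates changes of low genes, with group as the only term, over genes whose mean reached 1 RPKM. P-values were two-sided, with Benjamini-Hochberg adjustment over all genes tested and a threshold of 0.05. Voom, also in limma, was run on the recovered reads with TMM factors computed here. The fit was run on simulated counts with large changes in well-covered genes, which checks the code and not its power for these data. Exact permutation tests and intervals used scipy 1.17.1. No mRNA libraries were used here, so a footprint level is not a translation efficiency. Coding sequences came from GENCODE vM21, which shared identifiers with 99.7% of the table's genes.

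The members, lists and tests were chosen with earlier results of these data known. Named genes were all 10 members, Eif5a, and from each list the 3 tested genes with most reads and any with an unadjusted p under 0.05, at most 6, plus the 3 nearest profiles to Myc and to Egr1. A gene that this rule names is not reported here. The ratios and family shares within a library were added after the values were seen. Alternatives were a pseudocount of 0.1, no filter, a mean RPKM of at least 5, protein-coding genes alone, no variance trend, other scalings, voom, removal of a GC and length trend, a replicate block, and each library left out in turn.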

Additional observations from a re-analysis of the deposited data

How the results depend on the processing

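In all 15 alternatives 0 of the 10 genes passed the adjusted threshold. Of 150 member values under alternatives, 135 kept their direction, but many of these could not change. The changed filters, protein-coding genes alone, no variance trend and the replicate block leave each difference as in the main fit by design. Scaling to all gene-assigned reads moved the median of all genes tested by 0.47 and the median of the 10 genes to 0.44, and it turned Egr1 (0.020), Fosl2 (0.062), Jun (0.39) and Ier2 (0.49). Scaling to protein-coding reads turned Junb (-0.037) and Myc (-0.061). With the GC and length trend removed, the median of the 10 was 0.20, Jun 0.15 and Ier2 0.25, values that a replicate block cannot change. Leaving out 1 library gave a median from -0.37 to 0.0026, 5 to 9 genes without overlap (a group of 1 library has fewer values to overlap), and values of Myc from -0.28 to 0.39, of Ier2 from -0.39 to 0.13 and of Fosl1 from -1.41 to 0.0051. There the lone library was assumed to vary like the other group. The share of the 10 genes in reads differed by -0.15 percentage points (KO minus WT) on protein-coding reads, from -0.22 to -0.069 without 1 library, and by 0.11 on all gene-assigned reads.

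Same-numbered libraries hardly deviated together (correlation of deviations from the group means 0.057 over 11363 genes). With 2 libraries in a group this is a single comparison, so whether the numbers pair the libraries cannot be decided from it. A replicate block cannot change the differences in this balanced design, so the median of the 10 was -0.18 with it too, and 0 were called. Over all genes tested, 12 were called in the main test, 14 when scaled to protein-coding reads, 77 by voom (12 of them protein-coding) and 0 in each of the other alternatives, the block included. Adjusted p for Jund ran from 0.22 (voom) to 0.94 over the alternatives. Reads limit Fosl1 and Jund most, with 14 and 15 reads in KO 1.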
